A study of Mus musculus with 4 samples.

Results

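The Nrf2 and antioxidant genes described here are Nfe2l2, Keap1, Nqo1, Hmox1, Gclc, Gclm, Txnrd1, Srxn1, Slc7a11 and Prdx1. They are 10 of the 27179 genes in the deposited expression table and were taken by symbol, after Entrez gene IDs were matched to mouse symbols. All 10 have a row. RNA was sequenced from mouse acute myeloid leukemia (AML) stem cells, the cells held to sustain the disease. The cells came from bone marrow of a C57BL/6 model and were sorted as positive for YFP, Mac-1 and c-Kit. The groups were 2 B7-H4-null libraries and 2 wild-type libraries. B7-H4, encoded by Vtcn1, is a B7 family ligand that restrains T cells. Both groups carried the leukemia and the YFP label. The labels name neither the oncogene nor the age of the mice, and do not say whether each library came from its own animal.

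Nrf2, the product of Nfe2l2, is a transcription factor that the adaptor Keap1 holds for degradation by a ubiquitin ligase. Oxidants and electrophiles modify Keap1, Nrf2 then enters the nucleus, pairs with a small Maf protein and binds antioxidant response elements. Its classical targets make glutathione, recycle thioredoxin, reduce quinones and break down heme. Because much of this control acts on the Nrf2 protein, the Nfe2l2 transcript is not a measure of Nrf2 activity. In AML, antioxidant capacity is known as a property of the leukemic blasts that bears on their survival under drug treatment.

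The library totals behind the values were 9419425 and 10814448 reads in the B7-H4-null libraries and 10144166 and 9933947 reads in the wild-type libraries. Vtcn1 had 1 and 1 reads in the B7-H4-null libraries and 0 and 0 reads in the wild-type libraries, so its loss could not be checked at this depth. The sort markers Itgam, Itgb2 and Kit were present in every library, with a summed level of 217.1 and 215.4 RPKM in B7-H4-null and 350.7 and 307 RPKM in wild type. Kit made up little of these sums and its groups overlapped. It had 11 and 9.37 RPKM in B7-H4-null and 24 and 7.19 RPKM in wild type replicates 1 and 2. Values are RPKM, reads scaled to the length of the gene and to the total of the library. Other programs lay apart between the genotypes, with no gene of theirs past the test (lowest limma adjusted p = 0.134 and 0.13). Handling and immediate early genes are known to respond quickly to signals and to the handling of cells. Of 24 tested, 21 lay above both wild-type libraries in both B7-H4-null libraries, against 16.0% of all tested genes. Among the 21, Fosl1 reached 1 RPKM, the filter for testing, in the B7-H4-null libraries alone. It had 6.41 and 3.31 RPKM there and 0.405 and 0.413 RPKM in wild type, so its place was fixed by the filter. The summed level of the 25 listed was 15790 and 6989 RPKM in B7-H4-null replicates 1 and 2, and 2935 and 4005 RPKM in wild type replicates 1 and 2. All 12 tested neutrophil markers lay below, against 28.0% of all tested genes, with sums of 7352 and 9161 RPKM in B7-H4-null and 25120 and 15140 RPKM in wild type. In bulk RNA, fewer cells of a type and less RNA per cell cannot be told apart. The part of either program in the values below was not tested.

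The antioxidant genes were expressed at very different levels, and no member passed the test between the genotypes. By the median of the 4 libraries, Prdx1 stood highest, followed by Txnrd1, Keap1, Hmox1, Nfe2l2, Gclc and Gclm. Srxn1, Nqo1 and Slc7a11 stood far below, in that order in every library. Medians ranged between 68.1 RPKM for Prdx1 and 0.182 RPKM for Slc7a11. Prdx1 was above Txnrd1 in each library, although their ranges met. The ranges of Txnrd1, Keap1, Hmox1, Nfe2l2, Gclc and Gclm overlapped between every pair of neighbours in this order. The ranges of Gclm, Srxn1, Nqo1 and Slc7a11 did not overlap with one another.

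**Figure D1:**
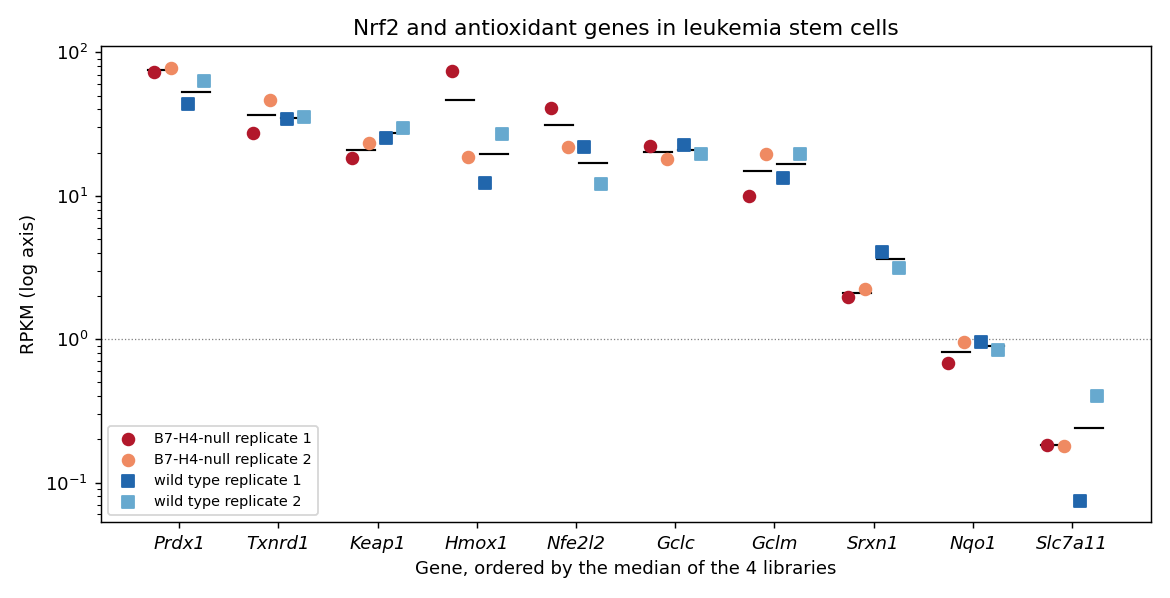
RPKM on a log axis for each of the 10 genes, with circles for the 2 B7-H4-null libraries, squares for the 2 wild-type libraries and a bar at each genotype mean. The dotted line marks 1 RPKM, under which Nqo1 and Slc7a11 lie in every library. Hmox1 in B7-H4-null replicate 1, at 74 RPKM, stands apart from the other 3 libraries.

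Genes that reached 1 RPKM in 2 or more libraries were tested with limma on log2(RPKM + 1), and p-values were adjusted over all 12107 such genes by the Benjamini-Hochberg method. Of the 10 members 8 met this filter, while Nqo1 and Slc7a11 did not. At an adjusted p of 0.05, 0 of the 8 were called, against 0.0991% of all tested genes. At an unadjusted p under 0.05 the count was also 0, where 12.3% of all tested genes passed, and limma's voom on recovered reads called 0 as well, against 0.132% of all tested genes. Of the 8, 1 lay above in both B7-H4-null libraries (12.5%), against 16.0% of all tested genes, and 2 lay below (25%), against 28.0%. These shares are near the background. The median log2 difference of the 8, B7-H4-null minus wild type, was −0.01, beside −0.09 over all tested genes. After median-ratio scaling the medians were 0.09 for the 8 and 0.01 over all tested genes.

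Among the regulators, Nfe2l2 (Entrez ID 18024, located on chromosome 2 between 75675513 and 75704663) had 40.98 and 21.8 RPKM in B7-H4-null replicates 1 and 2, and 22.04 and 12.03 RPKM in wild type replicates 1 and 2. B7-H4-null replicate 1 was the highest and wild type replicate 2 the lowest, and the groups overlapped narrowly in the other pair. The means were 31.4 ± 13.6 RPKM in B7-H4-null and 17 ± 7.08 RPKM in wild type (SD, n = 2 each). The log2 difference was 0.84 with a 95% interval of −0.13 to 1.80 (limma adjusted p = 0.471). Leaving out B7-H4-null replicate 1 gave 0.40 and leaving out B7-H4-null replicate 2 gave 1.28, and the omission of wild type replicate 2 or 1 gave 0.43 or 1.25.

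Keap1 (Entrez ID 50868, located on chromosome 9 between 21229730 and 21239332), the sensor that marks Nrf2 for degradation, had 18.34 and 23.44 RPKM in B7-H4-null and 25.32 and 29.79 RPKM in wild type. Both B7-H4-null libraries lay below both wild-type libraries. The log2 difference was −0.39 with a 95% interval of −1.01 to 0.23 (limma adjusted p = 0.595). An antisense gene, Gm16754, overlaps exons of Keap1, and reads of both cannot be told apart in a library that does not mark strand. In a ratio chosen after the values were seen, Nfe2l2 over Keap1 was 2.23 and 0.93 in B7-H4-null and 0.871 and 0.404 in wild type. Both B7-H4-null ratios exceeded the wild-type ones, and the ratio varied within each genotype by more than the gap between the nearest libraries of the genotypes.

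Hmox1 (Entrez ID 15368, located on chromosome 8 between 75093618 and 75100593) encodes the inducible heme oxygenase, which breaks heme down to biliverdin, iron and carbon monoxide. It had 73.96 and 18.72 RPKM in B7-H4-null replicates 1 and 2, and 12.26 and 26.83 RPKM in wild type replicates 1 and 2. One library, B7-H4-null replicate 1, was high, and B7-H4-null replicate 2 lay between the wild-type libraries. The means of 46.3 ± 39.1 RPKM in B7-H4-null and 19.5 ± 10.3 RPKM in wild type (SD, n = 2 each) gave a log2 difference of 1.001 with a 95% interval of −0.54 to 2.54 (limma adjusted p = 0.583). Without B7-H4-null replicate 1 the difference was 0.04, so its size rested on that library. B7-H4-null replicate 1 also held the highest summed level of the handling genes, 15790 RPKM. Between B7-H4-null replicates the gap of Hmox1, replicate 1 minus replicate 2, was 1.93 on the log2 scale, larger than that of 98.5% of tested genes. Between wild-type replicates it was −1.07, larger in size than that of 95.5% of tested genes.

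Hmox1 is also abundant in tissue macrophages that recycle red cells. Of the 12 listed markers of such macrophages 3 were tested, and the summed level of all 12 was 51.2 and 27.2 RPKM in B7-H4-null replicates 1 and 2, and 144.9 and 66.4 RPKM in wild type replicates 1 and 2. Most of each sum came from Slc40a1, Adgre1 and Vcam1, which other myeloid cells also make. Adgre1, the F4/80 antigen, had 29.8 and 15.1 RPKM in B7-H4-null and 25.3 and 16 RPKM in wild type, and so was highest in the library with the most Hmox1. Slc40a1 went the other way and was lowest in that library. It had 7.38 and 8.78 RPKM in B7-H4-null and 23 and 17.5 RPKM in wild type. Vcam1, an adhesion molecule, had 12.6 and 1.12 RPKM in B7-H4-null and 93 and 30 RPKM in wild type. The other markers lay under 2 RPKM in every library, and Spic, at 0 in both B7-H4-null libraries, had at most 1 read in any library. The part of such cells in the Hmox1 values was not tested.

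The glutathione members were 2 tested genes and the weakly read Slc7a11, with groups that overlapped for each. Gclc (Entrez ID 14629, located on chromosome 9 between 77754535 and 77794489), the catalytic subunit of glutamate-cysteine ligase, had 22.15 and 18.19 RPKM in B7-H4-null and 22.47 and 19.5 RPKM in wild type. The 4 values lay close together, and the log2 difference was −0.06 with a 95% interval of −0.66 to 0.54 (limma adjusted p = 0.945). Its sign turned after median-ratio scaling, to 0.04. Gclm (Entrez ID 14630, located on chromosome 3 between 122245487 and 122267215), the modifier subunit that makes the enzyme more active, had 10.04 and 19.5 RPKM in B7-H4-null and 13.41 and 19.65 RPKM in wild type. Replicate 1 was the lower library in both genotypes, and the groups overlapped. The log2 difference of Gclm was −0.20 with a 95% interval of −1.07 to 0.68 (limma adjusted p = 0.86). With B7-H4-null replicate 1 left out it was 0.25. Exons of Gclm overlap those of Gm17494, on the opposite strand, and of the pseudogene Gm6061, so its reads may be shared.

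The ratio of Gclm to Gclc, chosen after the values were seen, was 0.453 and 1.07 in B7-H4-null replicates 1 and 2 and 0.597 and 1.01 in wild type replicates 1 and 2. It split the libraries by replicate number and not by genotype. Slc7a11 (Entrez ID 26570, located on chromosome 3 between 50364936 and 50499087), the cystine importer that feeds glutathione synthesis, was barely read. It had 0.184 and 0.18 RPKM in B7-H4-null and 0.0748 and 0.404 RPKM in wild type, or 16 and 18 reads against 7 and 37 reads. Over both libraries of a genotype that was 34 against 44 reads, a ratio per read total of 0.767 with an exact 95% binomial interval of 0.475 to 1.23. The interval covers counting error only, and the 7 and 37 reads in the wild-type libraries lay further apart than the genotypes did.

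The thioredoxin genes differed among themselves. Txnrd1 (Entrez ID 50493, located on chromosome 10 between 82833951 and 82897724), the cytosolic thioredoxin reductase, had 27.26 and 46.27 RPKM in B7-H4-null and 34.24 and 35.32 RPKM in wild type. The wild-type values lay between the B7-H4-null ones. The log2 difference was 0.03 with a 95% interval of −0.71 to 0.77 (limma adjusted p = 0.98), and its sign depended on which B7-H4-null library was left out, at 0.40 without replicate 1 and −0.34 without replicate 2.

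Prdx1 (Entrez ID 18477, located on chromosome 4 between 116685599 and 116700000), a peroxiredoxin that reduces hydrogen peroxide with electrons from thioredoxin, had 73.27 and 78.37 RPKM in B7-H4-null and 43.55 and 62.94 RPKM in wild type. It was the one tested member whose B7-H4-null values both exceeded the wild-type ones. The means were 75.8 ± 3.61 RPKM in B7-H4-null and 53.2 ± 13.7 RPKM in wild type (SD, n = 2 each), a ratio of 1.42. The log2 difference was 0.52 with a 95% interval of −0.14 to 1.19 (limma adjusted p = 0.503). Leaving out wild type replicate 1 gave 0.26, and leaving out wild type replicate 2 gave 0.79. Whether any copy of Prdx1 elsewhere in the genome shares its reads was not tested.

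Srxn1 (Entrez ID 76650, located on chromosome 2 between 152105524 and 152111376), the sulfiredoxin that restores over-oxidised peroxiredoxins, went the other way. It had 1.97 and 2.22 RPKM in B7-H4-null and 4.05 and 3.16 RPKM in wild type, or 48 and 62 reads against 106 and 81 reads. Both B7-H4-null libraries were lower, and the ratio of means was 0.582. Its log2 difference was −0.57 with a 95% interval of −1.20 to 0.06 (limma adjusted p = 0.455), and it stayed between −0.71 and −0.43 when any one library was left out. Srxn1 had the smallest p of the 8 tested members, at 0.0712 unadjusted. The enzyme and its substrate thus lay apart in opposite directions without either passing the test.

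Nqo1 (Entrez ID 18104, located on chromosome 8 between 107388225 and 107403205), the quinone reductase often used as a readout of Nrf2, was low in every library. It had 0.684 and 0.953 RPKM in B7-H4-null and 0.953 and 0.843 RPKM in wild type, or 10 and 16 reads against 15 and 13 reads. Over both libraries this was 26 against 28 reads, a ratio per read total of 0.921 with an exact 95% binomial interval of 0.519 to 1.63. The interval covers counting error only, and a difference within it was not detectable at this depth.

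**Figure D2:**
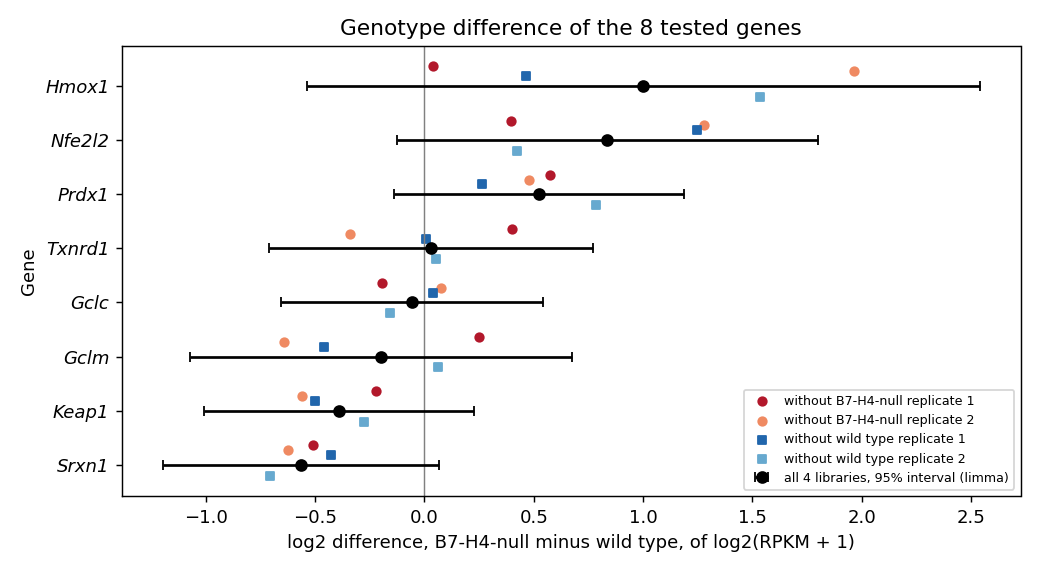
Log2 difference of log2(RPKM + 1), B7-H4-null minus wild type, for the 8 tested genes, with limma's 95% interval in black and the value without each library in colour. All 8 intervals include 0. Hmox1 moved most when a library was left out, between 0.04 and 1.96, followed by Gclm and Nfe2l2.

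The members did not share a pattern across the libraries. In B7-H4-null replicate 1, Hmox1 and Nfe2l2 stood at their highest, 1.46 and 0.86 above their means of log2(RPKM + 1) over the 4 libraries. In the same library Gclm, Txnrd1, Keap1 and Srxn1 were at their lowest, 0.55, 0.36, 0.36 and 0.34 below their means. The library with the most Nfe2l2 transcript thus had the most Hmox1 and the least Txnrd1, Gclm and Srxn1 in RPKM. For Srxn1 this was a near tie, at 1.97 RPKM against 2.22 RPKM in B7-H4-null replicate 2. A link between the level of Nfe2l2 and these genes was not tested. The untested Nqo1 was also lowest in B7-H4-null replicate 1, but at 10 reads, where the other libraries had 16, 15 and 13. B7-H4-null replicate 2, in turn, had the highest Txnrd1 and Prdx1. Nfe2l2 was higher in replicate 1 than in replicate 2 of both genotypes, by 0.88 in B7-H4-null and 0.82 in wild type on the log2 scale. Keap1 and Gclm were lower in replicate 1 of both.

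**Figure D3:**
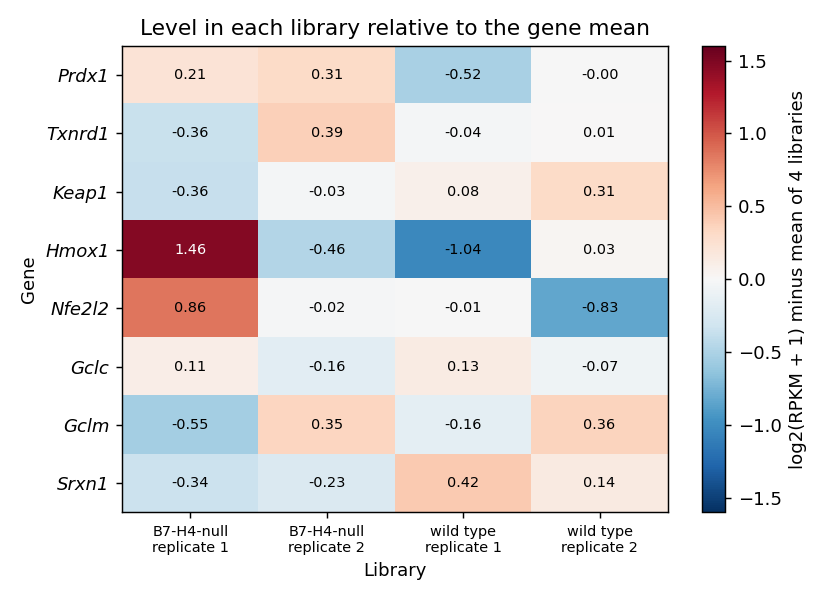
Level of each tested gene in each library, as log2(RPKM + 1) minus the mean of the 4 libraries, with the 2 B7-H4-null libraries at the left. Red is above and blue below the mean of that gene. B7-H4-null replicate 1 holds the highest values of Hmox1 (1.46) and Nfe2l2 (0.86) and the lowest of Gclm.

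Genes with a like profile were looked for by the Euclidean distance between centred log2(RPKM + 1) values over the 4 libraries. Genes without a symbol or with a provisional name were left out. Nearest to Hmox1, the tested member with the largest difference, were Itga2b, an integrin chain of platelets and early progenitors (distance 0.235), Id2, an inhibitor of helix-loop-helix factors (0.444), and Pcp4l1 (0.515). Id2 had 538.9 and 147.9 RPKM in B7-H4-null replicates 1 and 2, and 105.2 and 148.5 RPKM in wild type replicates 1 and 2. Nearest to Nfe2l2 were Slc20a1, a phosphate transporter (0.0272), the small nucleolar RNA Snora81 (0.0291) and the histone gene H2bc15 (0.06). With 4 libraries and 12107 genes, close profiles arise easily, and these names are a description only.

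Stretches of promoter sequence are given for the 4 members with the antioxidant response element TGACNNNGC, on either strand, upstream of an annotated start. They are also given for Srxn1, whose upstream matches in this search were to the AP-1 element TGAGTCA. Other spellings of the antioxidant response element were not searched. RefSeq windows on GRCm38.p6, 250 bases before to 50 bases after a start, were found for 8 of the 10 members, with 10 windows in all. Hmox1 and Gclc had no window. Letters are 5′ to 3′ on the strand of the gene, and capitals mark the match, which reads GCNNNGTCA where the element lies on the other strand.
Nfe2l2, chr2:75704875-75704913, minus strand: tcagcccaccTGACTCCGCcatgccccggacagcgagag
Gclm, chr3:122245403-122245451, plus strand: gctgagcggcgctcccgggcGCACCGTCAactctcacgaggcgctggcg
Txnrd1, chr10:82859094-82859142, plus strand: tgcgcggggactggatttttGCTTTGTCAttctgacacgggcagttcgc
Prdx1, chr4:116685446-116685494, plus strand: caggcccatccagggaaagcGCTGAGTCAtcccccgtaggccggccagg
Srxn1, chr2:152105402-152105448, plus strand: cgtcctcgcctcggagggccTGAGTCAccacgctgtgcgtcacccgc
Srxn1, chr2:152105459-152105505, plus strand: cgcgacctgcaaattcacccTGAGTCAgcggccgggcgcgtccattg

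The matches began 240 bases before the start in Nfe2l2, 134 in Gclm, 92 in the second of 3 Txnrd1 windows and 133 in Prdx1. In Srxn1 the element TGACNNNGC was met 28 bases after the start, so that 5 of the 10 windows of the members held it (50%), against 12.4% of all 32851 windows. Txnrd1 has 3 windows and so more chances of a match. The members were chosen as known Nrf2 genes, so this share is a property of that choice. In Prdx1 and Srxn1 the window also held the AP-1 element TGAGTCA on either strand, which 5.2% of all windows hold. In Prdx1 one AP-1 match lies within the antioxidant element shown, and another starts 237 bases before the start. The Srxn1 matches began 102 and 45 bases before the start. Prdx1 and Srxn1, the members with both elements, lay in opposite directions between the genotypes, and neither passed the test. A link between the elements and expression was not tested. Neither element was met in these letters in the windows of Nqo1, Keap1 and Slc7a11. Sequence outside the windows was not searched, so this does not show that these genes lack the elements.

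Beyond the members, 8 lists of related genes were read from the same fit, and 0 of their tested genes passed at an adjusted p of 0.05, by limma or by voom. Among the partners and regulators of Nrf2, 12 of 14 were tested. At an unadjusted p under 0.05, 2 were higher and 1 lower, where 5.05% of all tested genes were higher and 7.2% lower. Of the 12, 2 lay above (16.7%) and 3 below (25.0%) in both B7-H4-null libraries, against 16.0% and 28.0% of all tested genes. By this measure the list lay near the background. Maff, a small Maf partner of Nrf2, had the smallest p, with 10.7 ± 1.14 RPKM in B7-H4-null and 3.59 ± 0.886 RPKM in wild type (SD, n = 2 each), a log2 difference of 1.35 with a 95% interval of 0.71 to 1.995 (limma adjusted p = 0.173). Mafk, another small Maf protein, had 28.1 ± 5.74 RPKM in B7-H4-null and 17.3 ± 1.95 RPKM in wild type (limma adjusted p = 0.387). Bach1, the heme-sensing repressor that competes with Nrf2 for the same elements, had 8.26 and 11.8 RPKM in B7-H4-null and 16.1 and 21.8 RPKM in wild type. It was lower in both B7-H4-null libraries, with a log2 difference of −0.86 and a 95% interval of −1.55 to −0.17 (limma adjusted p = 0.334). Crebbp, a histone acetyltransferase that acts with Nrf2, had a log2 difference of −0.54 (limma adjusted p = 0.482). The 12 had a median of −0.13.

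Heme and iron genes accompany Hmox1, and all 11 listed were tested. Fth1, the ferritin heavy chain that stores iron, had 1360 and 796.8 RPKM in B7-H4-null and 417.9 and 525.3 RPKM in wild type. Both B7-H4-null values exceeded the wild-type ones, with a log2 difference of 1.15 and a 95% interval of 0.32 to 1.98 (limma adjusted p = 0.319). Ftl1, the light chain, had 1157 and 639.9 RPKM in B7-H4-null and 584.7 and 594 RPKM in wild type (limma adjusted p = 0.581). Both chains peaked in B7-H4-null replicate 1, as Hmox1 did, and both have processed copies in the genome that can share reads. Slc48a1, a heme transporter of the lysosome, had 71.8 ± 10.1 RPKM in B7-H4-null and 116.1 ± 13.5 RPKM in wild type (limma adjusted p = 0.369). Ireb2, an iron-responsive RNA-binding protein, had 12.3 ± 0.495 RPKM in B7-H4-null and 18.8 ± 0.242 RPKM in wild type (SD, n = 2 each, limma adjusted p = 0.399). Of the 11, 2 lay above (18.2%) and 3 below (27.3%) in both B7-H4-null libraries, against 16.0% and 28.0% of all tested genes, with a median of −0.07.

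Glutathione enzymes and transporters had 20 of 28 genes tested, with 6 above (30%) and 3 below (15%) in both B7-H4-null libraries, against 16.0% and 28.0% of all tested genes, and a median log2 difference of 0.08. Gstt2, a theta-class glutathione transferase, had 16.6 ± 4.15 RPKM in B7-H4-null and 6.65 ± 0.878 RPKM in wild type, a log2 difference of 1.18 with a 95% interval of 0.52 to 1.85 (limma adjusted p = 0.231). Slc3a2, the heavy chain that carries Slc7a11 to the cell surface, had 67.9 and 81 RPKM in B7-H4-null and 48 and 39.1 RPKM in wild type (limma adjusted p = 0.334). Its level was high in every library although Slc7a11 stayed under 1 RPKM, and it also serves other amino acid transporters. Mgst3 and Mgst2, microsomal transferases, had log2 differences of 0.77 and −0.47 (limma adjusted p = 0.395 and 0.489).

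In the thioredoxin and peroxiredoxin list all 15 genes were tested, and 3 lay above (20%) and 3 below (20%) in both B7-H4-null libraries, against 16.0% and 28.0% of all tested genes, with a median of 0.01. Prdx5, a peroxiredoxin found in mitochondria and peroxisomes, was more abundant than Prdx1 in RPKM, at 827 ± 96.2 RPKM in B7-H4-null and 1147 ± 50.5 RPKM in wild type (SD, n = 2 each, limma adjusted p = 0.547). Prdx6 had 147 ± 26.9 RPKM in B7-H4-null and 108 ± 3.56 RPKM in wild type (limma adjusted p = 0.566). The mitochondrial reductase Txnrd2 had a log2 difference of 0.53 and the p53 target Sesn1 one of −0.38 (limma adjusted p = 0.544 and 0.594). Superoxide dismutases and catalase, with 5 of 6 genes tested, had a median of −0.01. Sod1 had 283 and 253 RPKM in B7-H4-null and 234 and 399 RPKM in wild type, and Cat 34.6 and 31.6 RPKM in B7-H4-null and 38.6 and 32.8 RPKM in wild type. The groups overlapped for both (limma adjusted p = 0.846 and 0.891). Ccs, the copper chaperone of Sod1, and Park7 had log2 differences of 0.30 and 0.10 (limma adjusted p = 0.667 and 0.92).

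The supply of NADPH, on which the reductases depend, was read from 9 genes, 8 of them tested, with 3 above (37.5%) and 3 below (37.5%) in both B7-H4-null libraries, against 16.0% and 28.0% of all tested genes, and a median of −0.10. Pgls, of the pentose phosphate pathway, had 285 ± 49.9 RPKM in B7-H4-null and 173 ± 26.7 RPKM in wild type, and Idh1, the cytosolic isocitrate dehydrogenase, 22.1 ± 5.21 RPKM in B7-H4-null and 35.9 ± 6.37 RPKM in wild type (SD, n = 2 each, limma adjusted p = 0.382 and 0.402). Its mitochondrial relative Idh2 and the transhydrogenase Nnt lay above, with log2 differences of 0.57 and 0.49 (limma adjusted p = 0.491 and 0.465).

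Other Nrf2 targets of detoxification and export had 11 of 14 genes tested, with 4 above (36.4%) and 3 below (27.3%) in both B7-H4-null libraries, against 16.0% and 28.0% of all tested genes, and a median of 0.18. Nqo2, the paralog of Nqo1, had 10.6 and 10.7 RPKM in B7-H4-null and 16.4 and 16.3 RPKM in wild type. Replicates agreed closely and the groups did not overlap, at a log2 difference of −0.57 (limma adjusted p = 0.398). Ugdh, which makes UDP-glucuronate, had a log2 difference of −0.62 (limma adjusted p = 0.378). Cbr3, a carbonyl reductase, and the hydrolase Abhd4 had 0.85 and 0.74 (limma adjusted p = 0.337 and 0.329). Cbr3 was barely read, with 12 and 20 reads in B7-H4-null and 2 and 5 reads in wild type. At 1.09 and 1.59 RPKM in B7-H4-null and 0.169 and 0.431 RPKM in wild type, it met the filter through the B7-H4-null libraries alone.

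The ATF4 list was included because ATF4, the factor of amino acid stress, shares targets such as Slc7a11 with Nrf2. Its 9 tested genes of 10 had a median of 0.50, and 4 lay above (44.4%) and 0 below in both B7-H4-null libraries, against 16.0% and 28.0% of all tested genes. Atf4 had 701.7 and 406.5 RPKM in B7-H4-null and 329.5 and 206.6 RPKM in wild type (limma adjusted p = 0.362). Phgdh, the first enzyme of serine synthesis, had 11 and 19.5 RPKM in B7-H4-null and 3.32 and 3.17 RPKM in wild type, a log2 difference of 1.89 with a 95% interval of 1.13 to 2.65 (limma adjusted p = 0.137). Psat1, the next enzyme, had a log2 difference of 0.92 (limma adjusted p = 0.319). Ddit3 had 282 RPKM in B7-H4-null replicate 1 and 30.9 RPKM in replicate 2, and 37.9 and 9.82 RPKM in wild type (limma adjusted p = 0.452). Like Hmox1, it was high in one B7-H4-null library, and the groups overlapped.

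**Figure D4:**
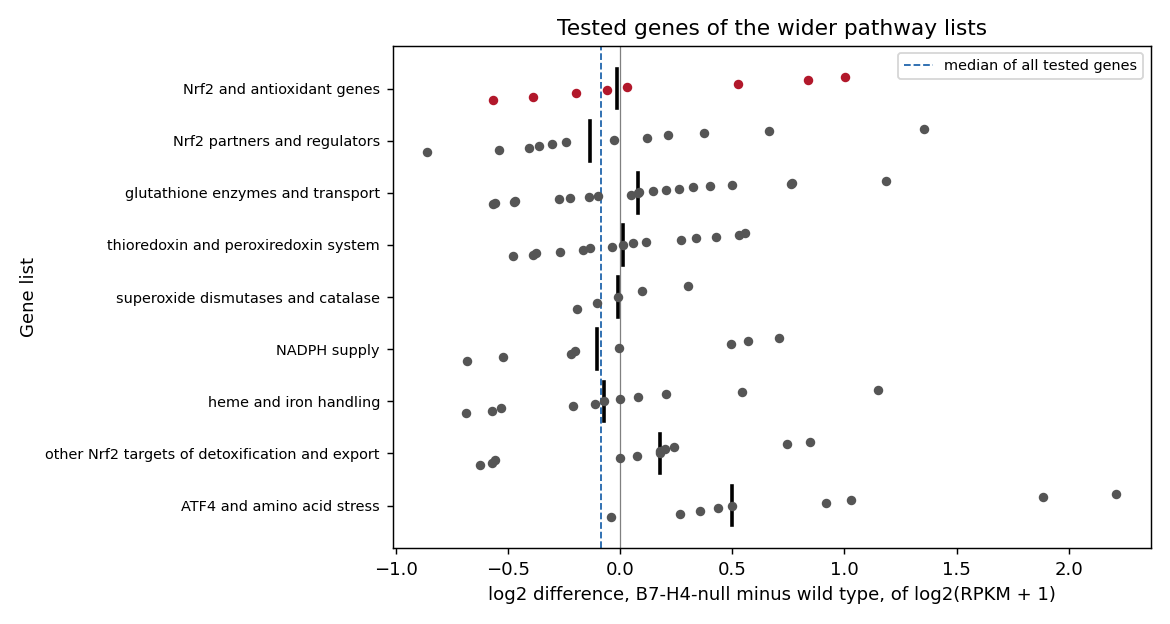
Log2 difference of log2(RPKM + 1), B7-H4-null minus wild type, of each tested gene of the members (red) and of 8 related lists (grey), with the median of each list as a black bar and the median of all tested genes, −0.09, as a dashed line. Most lists centre near the dashed line. The ATF4 list has the highest median, 0.50, and 0 of the genes shown passed the test.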

How the data were processed

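The 4 libraries, 2 B7-H4-null and 2 wild type, were read from 1 table that holds 1 column per library. The authors deposited RPKM values, a unit taken from the values, because the low values of each gene fall on a ladder whose steps differ between genes. Libraries followed the TruSeq RNA version 2 protocol, per the labels' protocols. Alignment with TopHat2 2.0.12 to GRCm38 is named in the submitters' processing notes. As for the counting program, its annotation and strand: not given in the sources used here. Gene symbols and coordinates came from an NCBI table of GRCm38.p6, which matched 25275 of 27179 IDs.

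Library totals were recovered from the lowest values, and all 14608 genes above 0 in every library then gave whole numbers of reads with a tolerance of 0.001 read. Genes reaching 1 RPKM in 2 or more libraries were tested with limma 3.58.1 in R 4.3.3 on log2(RPKM + 1), with a genotype term alone, a trend of variance on mean, two-sided tests and Benjamini-Hochberg adjustment at 0.05. Such differences understate the change of genes at low values. The test was checked on simulated data, where it missed most of the smallest changes made and its false calls ran above the nominal rate. An exact permutation test of 2 against 2 reaches p = 0.33 at best (two-sided) and was not used. Since no label ties the libraries to separate animals, the p-values reflect the spread between these libraries alone, which may be technical.

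The members and lists were chosen with earlier results of these data known, so no list was tested. All 10 members are named. Of each pathway list the 4 tested genes with the smallest p are named, and of the check lists genes at 5 RPKM or more may be named. Spic and Fosl1 were named outside this rule, after their values were seen. For Hmox1 and Nfe2l2 the 3 tested genes with the nearest profile are named, leaving out genes without a symbol or with a Gm, Rik, LOC or number-led name. The alternatives were another pseudocount, other filters, other scalings, no trend, a replicate block, each library left out, and voom on the recovered reads, which was chosen after seeing the data.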

Additional observations from a re-analysis of the deposited data

How the results depend on the processing

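No member was called under any alternative run, and 12 genes in all were called by limma on all libraries. That count was 0 with no filter on low values and 21 with the replicate number as a block, and between 0 and 56 when one library was left out (0 without either B7-H4-null library, 56 and 29 without wild type replicates 1 and 2). The median log2 difference of the tested members, −0.01, lay between −0.13 and 0.14 when one library was left out, with 0.14 without B7-H4-null replicate 1. The direction of Nfe2l2, Hmox1, Prdx1, Keap1 and Srxn1 was kept in every alternative run, except that Srxn1 was not tested with the filter at 5 RPKM. That of Gclc turned to 0.042 after median-ratio scaling and to 0.007 after quantile normalization, and ranged between −0.19 and 0.078 when one library was left out. Gclm ranged between −0.64 and 0.25 and Txnrd1 between −0.34 and 0.40 in the same way. The cause of these changes was not tested. Same-numbered libraries deviated together from their group means with r = 0.247 over 12107 genes. With 2 pairs this does not show that the numbers pair the samples, and genes are not independent replicates. The count-model alternatives planned for raw counts were not run, because the table holds RPKM. Depth limits Nqo1 and Slc7a11 most, at 10 to 16 and 7 to 37 reads per library.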
